A study of Mus musculus with 68 samples.

Results

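The strain comparison described here set lung mRNA of CAST/EiJ mice against that of C57BL/6J mice when both had breathed clean air. It held 12 of the 68 samples of the series, 7 RNA-seq libraries of CAST/EiJ (titled RNA_1, RNA_2 and RNA_101 to RNA_105) and 5 of C57BL/6J (RNA_3, RNA_4, RNA_5, RNA_6 and RNA_106), taken by the strain and exposure that their labels gave. All animals were wild-type males bought from The Jackson Laboratory, and the sources used here do not state their ages. Clean air was given on the same schedule, 6 hours per weekday over 2 weeks, as the industrial gas 1,3-butadiene (BD) was to the mice of the other 12 of the 24 RNA-seq libraries. The BD libraries served only to set values beside those of clean air, and 1 of them, RNA_8, was left out because its levels went against its strain label. All 16612 genes that passed a filter on low counts were tested, and the comparison was repeated with the libraries whose title number is 18 or less, 2 of CAST/EiJ and 4 of C57BL/6J.

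CAST/EiJ is an inbred strain derived from wild Mus musculus castaneus, whereas C57BL/6J is a classical laboratory strain, mostly of Mus musculus domesticus ancestry, whose sequence is the mouse reference genome. The subspecies differ at many sites in genes and in the elements that control them, so that many transcripts are known to differ in amount between such strains. Lung tissue mixes alveolar type 1 and type 2 cells, airway club and ciliated cells, endothelium, fibroblasts, smooth muscle, resident macrophages and circulating lymphocytes and neutrophils. A difference in whole-tissue RNA can therefore reflect fewer cells of a type or less RNA per cell, and the 2 cannot be told apart here.

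Libraries held 10601756 to 37529979 counts. Lung markers were present in all 12: Sftpc, the surfactant protein C of type 2 cells, was measured at 7930–13300 counts per 1e+06 counts of the library (CPM) in CAST/EiJ and 6690–9820 CPM in C57BL/6J. Markers of neighbouring tissue varied between libraries. The squamous keratin Krt13 stood at 247–787 CPM in CAST/EiJ libraries RNA_1, RNA_101 and RNA_102 and at 745 CPM in C57BL/6J RNA_106, and at 3.96 CPM or less in the other 8. Skeletal muscle actin Acta1 reached 767 CPM in CAST/EiJ RNA_101 and albumin reached 944 CPM in CAST/EiJ RNA_2. Title numbers over 100 were held by 5 CAST/EiJ libraries and by 1 of C57BL/6J. The labels do not say what the split by number means, and at equal strain it was itself associated with 3719 genes (22.4% of those tested) at an edgeR adjusted p under 0.05. The p-values given below measure only the spread between these libraries, since nothing says that each came from a separate animal.

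Most genes measured in the lung differed between the strains, mostly by small amounts. At an adjusted p under 0.05 (edgeR quasi-likelihood test, Benjamini-Hochberg over all genes), which is the threshold for a called gene throughout, 9540 of 16612 genes were called (57.4%). Of these, 4620 were higher in CAST/EiJ (27.8%) and 4920 lower (29.6%). With a difference of at least 2-fold also required, 2394 genes remained (14.4%), 878 higher (5.29%) and 1516 lower (9.13%). The median log2 difference over all tested genes was -0.0040. Differences of at least 8-fold were found for 115 genes higher and 132 lower, and of at least 32-fold for 30 and 33. For 5391 called genes (32.5% of those tested) the 7 CAST/EiJ values and the 5 C57BL/6J values did not overlap.

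The share of genes called at 2-fold fell with level, from 30.2% in the fifth of genes with the lowest mean CPM to 5.48% in the fifth with the highest. By chromosome it was 19% on chromosome 6, which carries the natural killer receptor genes, and 11% to 16% on the other chromosomes. On the first principal component of log2 CPM, which held 59.9% of the variance, all CAST/EiJ libraries lay on one side and all C57BL/6J libraries on the other. The build named in the submitters' notes is that of C57BL/6J, and the notes do not say how reads of CAST/EiJ were handled. How far this enters the counts was not tested.

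**Figure D1:**
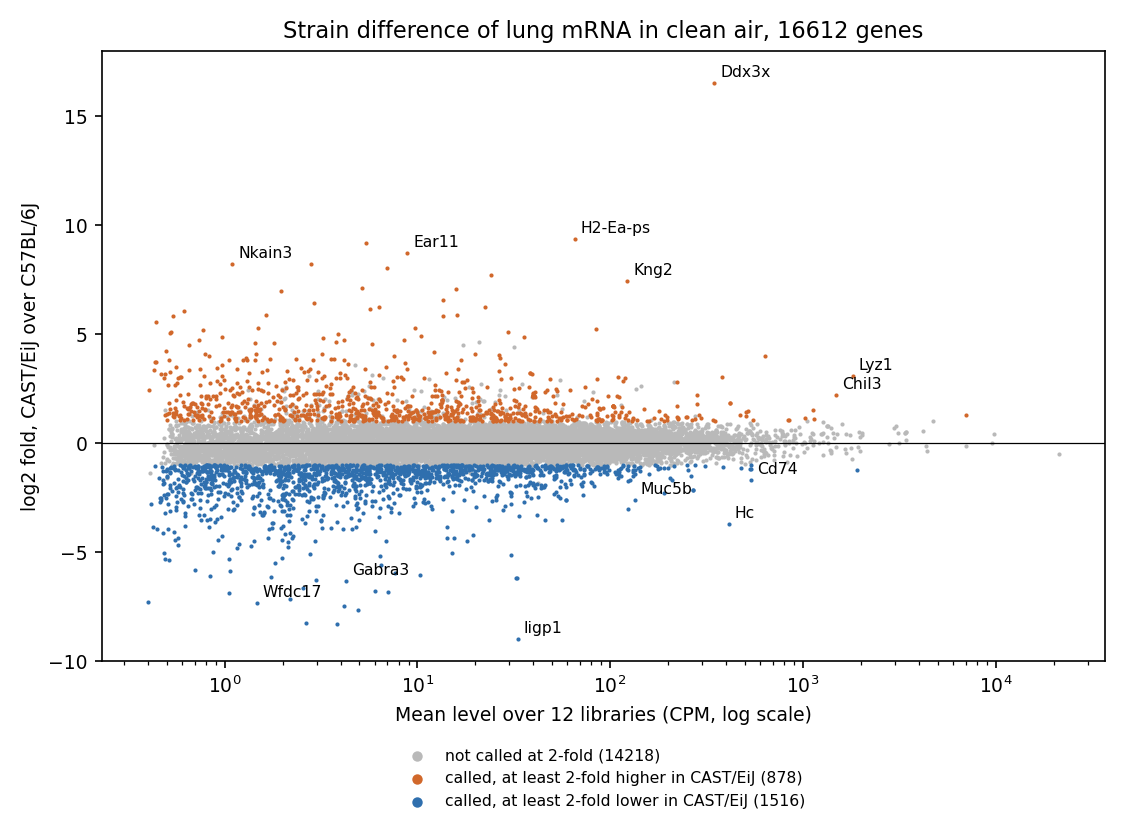
Log2 fold change of CAST/EiJ over C57BL/6J in clean air (y axis) against the mean level over the 12 libraries in CPM (x axis, log scale) for 16612 genes, 1 point per gene. Orange and blue points mark the 878 genes called at least 2-fold higher and the 1516 called at least 2-fold lower in CAST/EiJ, and the spread of the points narrows toward high levels.

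The genes with the highest and lowest folds, limited to named genes that averaged 1 CPM or more in a strain and whose libraries did not overlap, spanned receptors, immune genes and enzymes (plot of CPM by library of the 20 genes at the ends of the distribution). Levels are given in CPM as the lowest, the median and the highest of the 7 CAST/EiJ libraries, and in the order RNA_3, RNA_4, RNA_5, RNA_6 and RNA_106 for C57BL/6J. Ddx3x, the X-linked gene of an RNA helicase, was measured at 539.8, 599 and 636 CPM in CAST/EiJ and had no count in any C57BL/6J library, which puts it at least 3370-fold higher in CAST/EiJ against a floor of 3 counts per library. Its Y-linked relative Ddx3y held 1582 to 6730 counts in the 11 C57BL/6J libraries of both exposures and had no value in the table for any library labelled CAST/EiJ, as was the case for 21 Y-linked entries in all. The 0 of Ddx3x in every C57BL/6J library thus came with a Y-linked entry that only these libraries had, and the part this plays in the difference was not tested.

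H2-Ea-ps, the alpha chain gene of the class II molecule I-E, of which C57BL/6 mice are known to carry a non-expressed allele, stood at 89.99, 113 and 128 CPM in CAST/EiJ. In C57BL/6J it was measured at 0, 0.184, 0.173, 0.217 and 0.186 CPM, and it was called 653-fold higher (log2 9.35 ± 0.20, SE; edgeR adjusted p = 3.20e-13). Kng2, which encodes a kininogen, the precursor of bradykinin, held 165, 203 and 294 CPM in CAST/EiJ and 2.99, 0.276, 1.55, 0.913 and 0.69 CPM in C57BL/6J (172-fold). RNA_105 was the highest of the CAST/EiJ libraries, and no C57BL/6J library came near the CAST/EiJ range.

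Amer1, an X-linked regulator of Wnt signalling, was measured at 35.1, 39.3 and 50.3 CPM in CAST/EiJ and 0.225, 0.551, 0.115, 0.0870 and 0.159 CPM in C57BL/6J (208-fold higher; adjusted p from edgeR 2.40e-11). Ear11, a ribonuclease of the eosinophil-associated family whose near-identical copies make its counts uncertain, held 9.11, 15.1 and 21.2 CPM in CAST/EiJ and 3 counts in all in C57BL/6J, a ratio of counts of 531 with an exact 95% counting interval of 182 to 2580. The lipocalin Lcn8 had 1 count in C57BL/6J against 3.25, 5.21 and 6.3 CPM in CAST/EiJ, a ratio of counts of 496 with an exact 95% counting interval of 88.7 to 19600. Both intervals cover counting error only. In these genes the strains were separated by a near absence of reads in C57BL/6J.

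The remaining members of the upper end were Nkain3, which had no count in C57BL/6J and was at least 10.6-fold higher in CAST/EiJ (1.87 ± 0.611 CPM, SD, n = 7), Rprl2, an RNase P-like RNA (266-fold), the gasdermin Gsdma3 (137-fold), and Klrb1-ps1, a pseudogene of the killer lectin-like receptors (134-fold). Rprl2 varied within CAST/EiJ, at 5.29, 9.25 and 33 CPM, with RNA_105 at 33 CPM and the next library at 13.3 CPM.

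At the other end stood Iigp1, an interferon-inducible GTPase that acts against intracellular parasites, on chromosome 18. It was measured at 0.0502, 0.141 and 0.323 CPM in CAST/EiJ and at 73.3, 67.5, 57.1, 98.8 and 99.3 CPM in C57BL/6J, 505-fold lower in CAST/EiJ (log2 -8.98 ± 0.24, SE; edgeR adjusted p = 2.33e-12). Clec12b, an inhibitory C-type lectin, had 2 counts over all CAST/EiJ libraries and 7.63, 7.26, 6.56, 7.05 and 3.21 CPM in C57BL/6J, a ratio of C57BL/6J to CAST/EiJ counts of 376 with an exact 95% counting interval of 103.7 to 3120. RNA_106 was the lowest of the C57BL/6J libraries for this gene and still above every CAST/EiJ library.

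Fam183b, a gene of motile cilia, had 4 CAST/EiJ libraries at 0 and a highest CAST/EiJ level of 0.162 CPM, against 9.43, 9.19, 10.3, 12.7 and 17 CPM in C57BL/6J (204-fold lower). Cd209f, a member of the DC-SIGN lectin family of macrophages, had 2 CAST/EiJ counts, both in RNA_104, a ratio of C57BL/6J to CAST/EiJ counts of 175 with an exact 95% counting interval of 48 to 1450. Wfdc17, which encodes a small secreted protein of macrophages, also had 2 CAST/EiJ counts, a ratio of C57BL/6J to CAST/EiJ counts of 249 with an exact 95% counting interval of 68.4 to 2060. As at the upper end, the separation came from near absence in one strain, here CAST/EiJ.

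Lower in CAST/EiJ to a similar degree were Skint3, of a family that selects skin T cells (141-fold), the membrane protein gene Tmem132d (115-fold), the olfactory receptor Olfr1033 (0.0593 ± 0.0553 against 6.04 ± 0.871 CPM), the GABA-A receptor subunit Gabra3 (80.6-fold) and Aoc1, the diamine oxidase that degrades histamine (70-fold). Some of these folds moved with 1 library. Without RNA_1 the log2 difference of Skint3 went from -7.14 to -8.44 and that of Gabra3 from -6.33 to -6.95, and without RNA_102 those of Clec12b and Fam183b went to -9.85 and -8.30. Without RNA_104 the value of Cd209f was -8.61. At the upper end, leaving out RNA_5 moved Ear11 from 8.73 to 9.73 and Lcn8 from 8.20 to 9.57, and leaving out RNA_106 moved Rprl2 from 8.06 to 9.05. All of these stayed called with their direction.

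**Figure D2:**
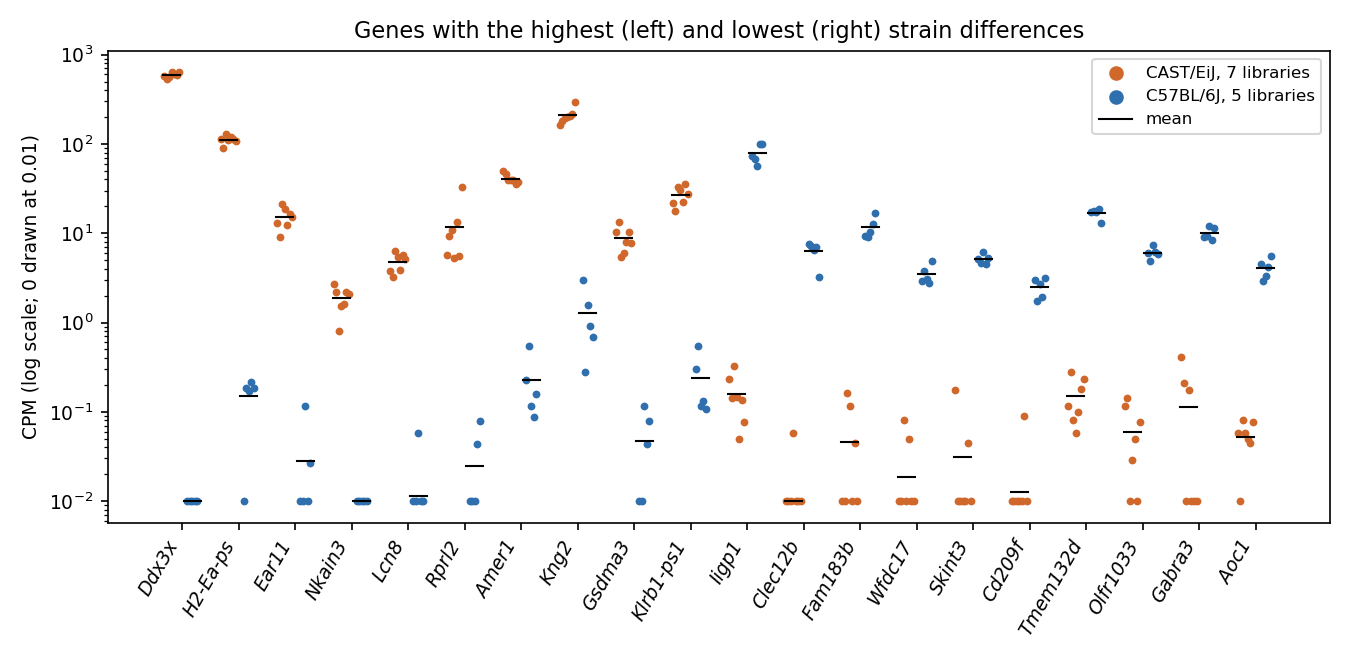
Levels in CPM (y axis, log scale, with 0 drawn at 0.01) of the 10 genes with the highest and the 10 with the lowest strain difference, 1 point per library (orange, 7 CAST/EiJ libraries; blue, 5 C57BL/6J libraries) and a bar at each mean. For each gene the points of the strains are apart, and in most genes the lower strain sits at 0 or near it.

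Ddx3x and Kng2, described above, also averaged over 100 CPM in the 12 libraries. Among the other genes at that level, the 6 highest and 6 lowest by the naming rule differed by up to 13.1-fold, and most of them encode secreted proteins. Lyz1, the P lysozyme of type 2 cells, stood at 1979, 2851 and 3647 CPM in CAST/EiJ and 313, 311, 374, 345 and 372 CPM in C57BL/6J, 8.33-fold higher in CAST/EiJ (edgeR adjusted p = 4.41e-09). Its neighbour Lyz2, the lysozyme of macrophages and type 2 cells, was 2.47-fold higher (9314 ± 1961 against 3776 ± 499 CPM; Lyz2 and the other genes outside the naming rule were chosen after their values were seen). Reads of the pair can be shared, so the split between them is uncertain.

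Chil3 (Ym1), a chitinase-like protein that alveolar macrophages secrete, held 1424, 2309 and 3335 CPM in CAST/EiJ and 451, 416, 476, 531 and 532 CPM in C57BL/6J (4.6-fold; edgeR adjusted p = 5.69e-07). Plat, the tissue plasminogen activator that starts fibrinolysis, was 7.02-fold higher (347 ± 122 against 49.4 ± 6.02 CPM, SD, n = 7 and 5), Itih4, of the family that stabilises hyaluronan matrix, was 8.17-fold higher and Retsat, the retinol saturase, 7.83-fold higher. Sfi1, a centrosome gene with several near-identical copies and therefore uncertain counts, was 4.57-fold higher.

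Hc and C7, both of the terminal complement pathway, were lower in CAST/EiJ. Hc, which encodes complement C5, was measured at 58.9, 64.7 and 95.1 CPM in CAST/EiJ and 848, 742, 933, 863 and 1083 CPM in C57BL/6J, 13.1-fold lower (log2 -3.71 ± 0.13, SE; edgeR adjusted p = 3.42e-11). C7, which joins C5b in the membrane attack complex, was 8.17-fold lower (30.9 ± 5.6 against 252 ± 42.5 CPM). CAST/EiJ RNA_2 was the highest of its strain for Hc, at 95.1 CPM, and far under the lowest C57BL/6J library. Muc5b, the main airway mucin, was 6.13-fold lower, at 18.7, 30.003 and 86.3 CPM against 239, 287, 225, 254 and 303 CPM. RNA_1 and RNA_2 were its highest CAST/EiJ libraries, and with numbers up to 18 only its log2 difference was -1.70 in place of -2.61. Ly6e, an interferon-induced surface protein (4.85-fold), Ndnf, a secreted growth factor (3.28-fold), and Cd74, the invariant chain of MHC class II (3.25-fold), completed this group.

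The gene lists with the lowest medians were those of lymphocytes (plot of the members of the gene lists). A list's counts are to be read against the 57.4% of all tested genes that were called, and its median log2 difference against -0.0040. Of 30 tested natural killer (NK) cell genes, 2 were higher and 27 lower in CAST/EiJ, with a median of -2.36. Ncr1, the NKp46 receptor that defines NK cells, stood at 0.97, 1.3 and 2.51 CPM in CAST/EiJ and 8.91, 9.65, 12.8, 8.31 and 9.02 CPM in C57BL/6J (6.74-fold lower, edgeR adjusted p = 1.70e-07). Klrc1 and Klrc2, which encode the NKG2A and NKG2C receptors, were 14.8-fold and 28.3-fold lower, and Ccl5, a chemokine of NK and memory T cells, 14.8-fold lower (0.465 ± 0.15 against 7.03 ± 1.61 CPM). The receptors of the Klr and Klra families have near-identical copies whose number differs between strains, so single members are uncertain. Klrb1f (16.8-fold) and the granzyme inhibitor Serpinb9b (2.85-fold) were the 2 members higher in CAST/EiJ.

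T cell genes were lower in 29 of 32 cases and higher in none, with a median of -1.72. Cd3e, a signalling chain of the T cell receptor, was measured at 0.155, 0.465 and 0.625 CPM in CAST/EiJ and 4.42, 7.07, 4.26, 3.96 and 2.55 CPM in C57BL/6J (9.77-fold lower, edgeR adjusted p = 8.07e-07). Ikzf3 and Tbx21, transcription factors of lymphocytes and of type 1 T and NK cells, were 7.65-fold and 6.56-fold lower. On the thymocyte list, which shares markers with CD8 T cells, 7 of 10 were lower, among them Themis (7.28-fold), Cd8a (5.46-fold) and Cd8b1 (4.19-fold), while Rag1, which marks the thymus itself, stayed at 0.642 CPM or less in all libraries. Foxp3, the factor of regulatory T cells, was not called (7.81 ± 1.01 against 8.26 ± 1.5 CPM, edgeR adjusted p = 0.659), nor was Cd4 (4.67 ± 0.809 against 6.1 ± 1.36 CPM, edgeR adjusted p = 0.0650). Cd8a was thus lower in every CAST/EiJ library than in any of C57BL/6J, while the ranges of Cd4 and Foxp3 overlapped.

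B and plasma cell genes were lower in 29 of 33 cases, with a median of -1.66. Cd22, an inhibitory receptor of B cells, held 2.33, 8.32 and 13.5 CPM in CAST/EiJ and 65.9, 74.1, 63, 54.2 and 32.2 CPM in C57BL/6J (7.4-fold lower, edgeR adjusted p = 5.25e-05). The Fc receptor Fcer2a (CD23) and Bank1, a B cell scaffold protein, were 6.56-fold and 6.22-fold lower. Of the 2 members that were higher, one was Xbp1 (1.5-fold), a secretory stress factor that many lung cells express. Within C57BL/6J, RNA_106 had the lowest mean log2 CPM of both the T cell and the B cell list, and still lay above every CAST/EiJ library (plot of list scores by library). The list score, the mean log2 CPM over tested members, spanned 1.08–1.81 in CAST/EiJ and 2.7–3.31 in C57BL/6J for T cells, -0.226–0.487 in CAST/EiJ and 1.66–2.1 in C57BL/6J for NK cells and 1.52–3.12 in CAST/EiJ and 3.62–4.39 in C57BL/6J for B cells. Without the 4 libraries with squamous keratins the list medians were -1.90 (T), -2.66 (NK) and -1.97 (B). Those 4 include RNA_106, the only C57BL/6J library of the higher title numbers. All libraries of the higher title numbers that remain are therefore of CAST/EiJ. In this subset, here and below, strain and number series largely go together, so it does not separate them.

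**Figure D3:**
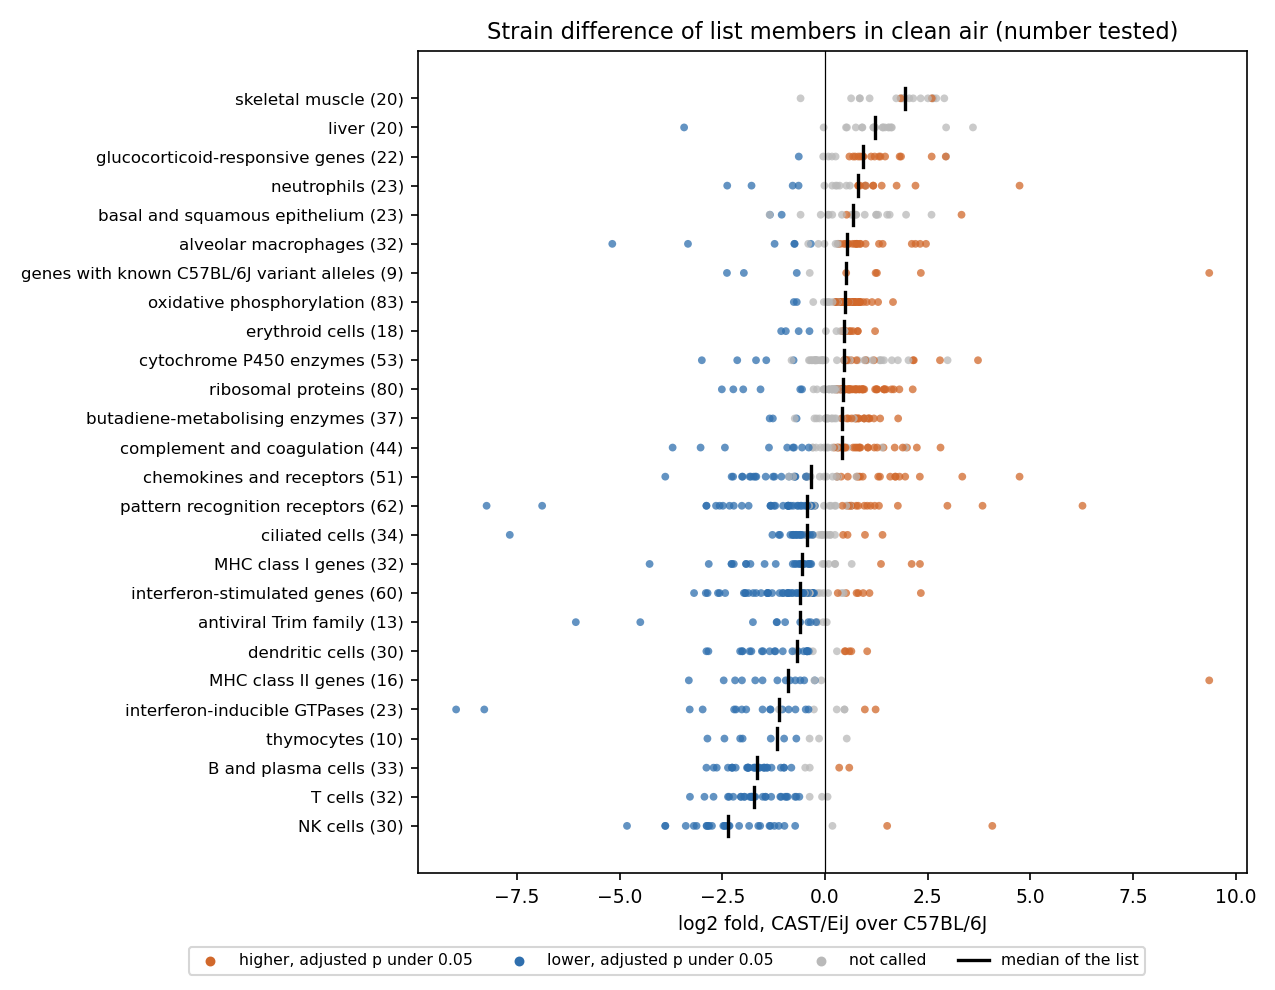
Log2 fold change of CAST/EiJ over C57BL/6J (x axis) of each tested member of 26 gene lists (y axis, number tested in brackets), 1 point per gene, orange where called higher, blue where called lower and grey where not called, with a black bar at the list median. The lymphocyte lists lie almost wholly below 0, with medians of -2.36, -1.72 and -1.66, and the muscle and liver lists have high medians with mostly grey points.

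Interferon-inducible GTPases, which coat and destroy the vacuoles of intracellular pathogens, were 2 higher and 16 lower of 23 tested, with a median of -1.12, and their calls differed by chromosome. All 7 tested members on chromosome 11 (Irgm1, Irgm2, Igtp, Tgtp1, Tgtp2, Ifi47 and a predicted gene) and both on chromosome 18 were lower, as were 5 of 6 Gbp genes on chromosome 5. The Gbp genes of chromosome 3 went otherwise: 1 of 5, Gbp2b, was higher (2.35-fold) and Gbp2, Gbp3, Gbp5 and Gbp7 were not called (edgeR adjusted p from 0.0690 to 0.374). Tgtp2 was measured at 4.35, 5.51 and 30.04 CPM in CAST/EiJ and 82.8, 64.1, 50.4, 116 and 123 CPM in C57BL/6J, 9.81-fold lower. Tgtp1 and Tgtp2 are near-identical copies, so their split is uncertain. Irgm1, a regulator of the family, was 2.05-fold lower and Gbp4 4.07-fold lower.

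One CAST/EiJ library stood apart in this list. RNA_1 had a list score of 4.35, the other 6 CAST/EiJ libraries 2.93–3.17 and the C57BL/6J libraries 4.55–5.13, and without RNA_1 the log2 difference of Tgtp2 went from -3.29 to -4.01. With numbers up to 18 only, where RNA_1 is 1 of 2 CAST/EiJ libraries and 43.8% of all tested genes were called, 1 member was higher and 4 were lower, and Tgtp2 and Irgm1 were not called (edgeR adjusted p = 0.108 and 0.115). Without the 4 libraries that held squamous keratins, RNA_1 among them, 2 were higher and 18 lower, with a median of -1.63. Strain and number series largely go together in that subset.

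The promoters of these GTPases are known for interferon-stimulated response elements, and windows of the reference strain were searched for such letters because members of 1 cluster were lower together. An ISRE-like match (GAAA, any 2 bases, GAAA, on either strand within 250 bases before the start) was found in 11 of the 13 members with a RefSeq promoter entry, against 3.04% of 27025 genes with one. Of these 11 members, 6 were lower, 1 higher and 4 not called, so matches stood before genes of each kind. The 150 bases before the start are shown for 4 lower members of chromosome 11 and for Gbp3 and Gbp7 of chromosome 3, which were not called, from RefSeq (GRCm38.p6), 5′ to 3′ on the gene's strand, with the match in capitals. The positions are chr11:58199406-58199555, forward strand (Igtp), chr11:58214827-58214976, forward strand (Irgm2), chr11:48992247-48992396, reverse strand (Tgtp1), chr11:49064213-49064362, reverse strand (Tgtp2), chr3:142559894-142560043, forward strand (Gbp3) and chr3:142530186-142530335, forward strand (Gbp7). They are sequences of C57BL/6J, and those of CAST/EiJ were not used here.
Igtp: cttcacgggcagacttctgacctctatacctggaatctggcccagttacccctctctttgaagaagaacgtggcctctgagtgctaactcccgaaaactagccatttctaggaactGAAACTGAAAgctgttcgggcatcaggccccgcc
Irgm2: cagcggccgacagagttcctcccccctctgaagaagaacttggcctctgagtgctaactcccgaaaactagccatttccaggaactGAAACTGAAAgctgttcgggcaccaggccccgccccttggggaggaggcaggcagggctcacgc
Tgtp1: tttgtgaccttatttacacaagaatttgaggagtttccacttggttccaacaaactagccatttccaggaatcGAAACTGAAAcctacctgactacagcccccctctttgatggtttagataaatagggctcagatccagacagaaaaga
Tgtp2: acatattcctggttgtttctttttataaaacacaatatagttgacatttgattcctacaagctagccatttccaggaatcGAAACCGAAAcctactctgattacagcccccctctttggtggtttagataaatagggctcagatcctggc
Gbp3: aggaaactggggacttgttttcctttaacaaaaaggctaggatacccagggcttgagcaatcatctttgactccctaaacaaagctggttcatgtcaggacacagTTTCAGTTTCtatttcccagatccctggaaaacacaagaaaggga
Gbp7: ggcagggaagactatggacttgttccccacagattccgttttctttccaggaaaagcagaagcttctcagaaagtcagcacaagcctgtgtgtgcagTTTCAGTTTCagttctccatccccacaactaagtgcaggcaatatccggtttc

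The mRNAs of antigen presentation by MHC class II were mostly lower in CAST/EiJ, with H2-Ea-ps the exception: 13 of 16 genes were lower and 1 higher, with a median of -0.90. Ciita, the master activator of class II genes, was measured at 13, 19.2 and 30.2 CPM in CAST/EiJ and 74.5, 89.6, 75.4, 102.6 and 61.8 CPM in C57BL/6J (4.06-fold lower, edgeR adjusted p = 4.82e-07). Among the chains that present peptide, H2-Aa was 2.87-fold lower (148 ± 18.4 against 425 ± 57.7 CPM), H2-Eb1 1.94-fold and H2-Ab1 1.8-fold lower, and Cd74 was measured at 217, 281 and 341 CPM against 815, 933, 906, 938 and 927 CPM. The B cell-restricted H2-Ob and H2-Oa, which inhibit peptide loading, were 5.53-fold and 4.56-fold lower and H2-Eb2 9.96-fold lower. Levels of H2-Aa, H2-Ab1, H2-Eb1 and Cd74 did not overlap between strains. The MHC is among the most polymorphic regions of the genome, and how far the build enters these counts was not tested.

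Class II promoters carry a conserved Y box that the factor NF-Y binds next to the sites that recruit CIITA. The letters CTGATTGG (either strand, 250 bases before the start) were found in 4 of 11 members with a RefSeq entry (H2-Aa, H2-Eb1, H2-Eb2 and H2-Oa), against 4.07% of 27025 genes. All 4 were called lower, as was most of the list (13 of 16), so the calls do not set these 4 apart. Windows are shown in the same way, because H2-Aa and H2-Eb1 encode chains whose mRNA was lower, at chr17:34287824-34287973, reverse strand and chr17:34305717-34305866, forward strand.
H2-Aa: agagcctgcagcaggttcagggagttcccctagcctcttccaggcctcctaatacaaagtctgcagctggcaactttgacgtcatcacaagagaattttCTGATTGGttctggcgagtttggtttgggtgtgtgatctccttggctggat
H2-Eb1: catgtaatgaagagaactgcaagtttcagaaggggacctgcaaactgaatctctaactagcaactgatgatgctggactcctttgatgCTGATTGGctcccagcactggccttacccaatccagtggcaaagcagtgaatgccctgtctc

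Dendritic cell genes were 5 higher and 21 lower of 30 tested (median -0.69): Siglech, of plasmacytoid cells, was 4.19-fold lower and the dectin-2 gene Clec4n 7.4-fold lower, whereas Clec4a2 (2.04-fold) and Itgax, the integrin CD11c (1.41-fold), were higher. Interferon-stimulated genes were 7 higher and 43 lower of 60 tested (median -0.60). Ifi44 was 9.12-fold, Slfn8 7.48-fold and Oas2, which makes the activator of RNase L, 7.26-fold lower. RNA_1 and RNA_2 were the highest CAST/EiJ libraries for Ifi44 and Oas2, and with numbers up to 18 only the log2 differences of these 2 genes were -2.20 and -1.70 in place of -3.19 and -2.86. Against the list's direction, the antiviral GTPase Mx2 was 5.04-fold higher (29.2 ± 2.78 against 5.83 ± 1.68 CPM) and Xaf1 1.9-fold and Ifi27 1.75-fold higher. Of the antiviral Trim family, 10 of 13 were lower and none higher. Trim12a was measured at 1.05, 1.62 and 2.5 CPM against 43.9, 43.1, 40.3, 39.97 and 36.5 CPM (22.6-fold lower) and Trim30d was 67-fold lower. The Trim12 and Trim30 genes lie in 1 cluster of similar copies on chromosome 7 and are uncertain one by one.

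MHC class I genes and their helpers were 3 higher and 23 lower of 32 tested (median -0.56), and 3 and 11 with numbers up to 18 only. Nlrc5, the activator of class I genes, was 4.66-fold lower (14.5 ± 10.3 against 67.6 ± 7.81 CPM), though not called with numbers up to 18 only (edgeR adjusted p = 0.0716), and the stress ligand of NK cells H60b was 19.3-fold lower. The 3 higher members, H2-Q1 (2.57-fold), H2-Q2 (4.31-fold) and H2-Bl (4.96-fold), belong to multi-copy class I families. Pattern recognition receptors went both ways, with 16 higher and 36 lower of 62 tested. The inflammasome sensor Nlrp1a was measured at 23.7, 28 and 30.2 CPM against 2.02, 1.84, 2.07, 1.74 and 1.94 CPM (14.3-fold higher, edgeR adjusted p = 2.33e-12), and the lectin-like genes Clec2h and Clec2g were 77-fold and 7.88-fold higher.

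Genes of neutrophils and alveolar macrophages were more often higher than lower in CAST/EiJ. Neutrophil genes were 11 higher and 4 lower of 23 tested (median 0.81). Cxcr1, a receptor for neutrophil-attracting chemokines, stood at 10.5, 13 and 21.4 CPM in CAST/EiJ and 0.599, 0.276, 0.748, 0.435 and 0.531 CPM in C57BL/6J (26.6-fold higher, edgeR adjusted p = 1.78e-09), and Trem3 was 3.35-fold higher. The granule genes Mmp9 (3.46-fold) and Ltf, lactoferrin (5.21-fold), were lower, the latter not called with numbers up to 18 only (edgeR adjusted p = 0.0926). Of the chemokines and their receptors, 17 of 51 were higher and 21 lower: the neutrophil attractant Cxcl5 was higher (2.69 ± 1.8 against 0.232 ± 0.134 CPM) and the monocyte attractant Ccl2 4.95-fold higher, and Cxcr3, a receptor of activated T cells, 4.71-fold lower.

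Alveolar macrophage genes were 20 higher and 6 lower of 32 tested (median 0.53). Gpnmb, a glycoprotein of lipid-laden macrophages, was 5.49-fold higher (93.6 ± 24.4 against 16.9 ± 2.87 CPM) and the fatty acid binding protein Fabp1 4.97-fold. Krt79, which marks alveolar macrophages among mouse lung cells, was in contrast measured at 0, 0.301 and 0.889 CPM in CAST/EiJ and 11.2, 16, 15.1, 17.5 and 14.3 CPM in C57BL/6J (36.2-fold lower). Spp1, osteopontin, was lower (7.04 ± 4.23 against 71.4 ± 14.5 CPM) and Ear2 2.34-fold lower. Markers of the same macrophage list thus differed in opposite directions. Monocyte and interstitial macrophage genes were 11 higher and 15 lower of 37 tested, with Plac8 (4.47-fold) and the Fc receptor Fcgr4 (3.19-fold) higher and Ms4a7 (8.97-fold) and Ms4a4c (5.72-fold) lower. Of 14 tested genes of mast cells, basophils and eosinophils, 2 were higher and 4 lower, among them the interleukin 5 receptor Il5ra (4.54-fold).

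**Figure D4:**
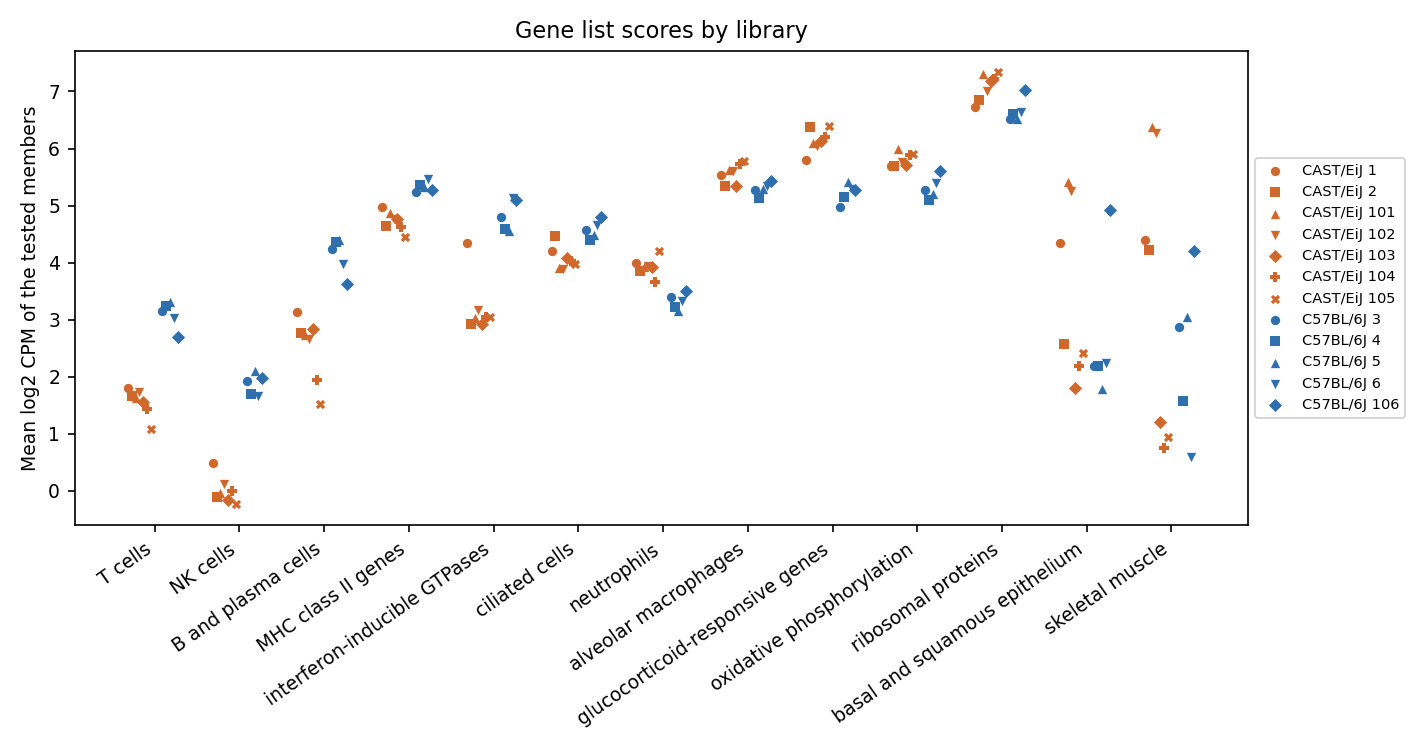
Mean log2 CPM of the tested members of 13 gene lists (y axis), 1 point per library (orange, CAST/EiJ; blue, C57BL/6J; the symbol gives the title number). Points of the strains are apart for T, NK and B cells, MHC class II, GTPases, neutrophils, glucocorticoid-responsive genes and oxidative phosphorylation, and the squamous and muscle lists are high in single libraries of either strain.

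Among the lists with the highest medians, 3 were high in some libraries of each strain. Skeletal muscle genes had a median of 1.94 with 2 of 20 called, liver genes 1.21 with 1 of 20 called, lower, and basal and squamous epithelium 0.69 with 2 higher and 2 lower of 23. With numbers up to 18 only, 5 of the muscle genes and 11 of the squamous genes were higher. The summed CPM of the skeletal muscle list ranged from 90.2 to 3520 in CAST/EiJ and from 99 to 727 in C57BL/6J, that of the liver list from 16.9 to 3280 and from 52.1 to 693. Without the 4 libraries with squamous keratins the median of the muscle list was 0.33 and that of the squamous list 0.0187. Without RNA_106 alone, 10 squamous genes were called higher. Itga6, an integrin of basal cells that other lung cells also express, was 2.08-fold lower.

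Genes induced by glucocorticoid hormones, in contrast, separated the strains. Of 22 tested, 16 were higher in CAST/EiJ and 1 lower, with a median of 0.93 (10 and 0 with numbers up to 18 only, median 0.70). Fkbp5, which encodes a feedback inhibitor of the glucocorticoid receptor, was measured at 49.6, 113 and 161 CPM in CAST/EiJ and 16.2, 16.1, 23.5, 19.1 and 18.6 CPM in C57BL/6J (6.04-fold higher, edgeR adjusted p = 2.11e-06). Fam107a stood at 44.9, 80.4 and 107 CPM against 6.81, 7.35, 11.8, 13.1 and 10.4 CPM (7.66-fold higher), Tsc22d3, the glucocorticoid-induced leucine zipper, was 2.48-fold higher and the metallothionein Mt2 3.6-fold higher. No C57BL/6J library reached the lowest CAST/EiJ library for these 4 genes. Clock genes, some of which respond to the same hormones, were 2 higher and 7 lower of 18 tested. Nr1d1 (Rev-erb alpha), whose mRNA swings over the day, was 3.69-fold lower with a wide range in CAST/EiJ (11.8, 24.7 and 57.2 CPM). The sources used here do not state the time of day of sampling.

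Immediate early genes, which answer within minutes to handling and stress, were 5 higher and 12 lower of 30 tested. Egr1 was 5.16-fold lower (9.44 ± 4.39 against 49.2 ± 28.7 CPM, with overlapping libraries) and Nr4a1 4.13-fold lower, while Ctgf, a matrix-associated growth factor, was 2.32-fold and Myc 1.55-fold higher. With numbers up to 18 only, Nr4a1 and Myc were not called (edgeR adjusted p = 0.0617 and 0.0627).

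In the alveolar epithelium, type 2 genes were 9 higher and 9 lower of 24 tested and type 1 genes 5 higher and 5 lower of 18 tested. With numbers up to 18 only, type 2 genes were 4 higher and 12 lower and type 1 genes 2 higher and 9 lower. At equal strain, 15 of the 24 type 2 genes were higher in numbers over 100. Sftpc stood at 7925, 11705 and 13317 CPM in CAST/EiJ and 8278, 7675, 6686, 8432 and 9817 CPM in C57BL/6J, with overlapping ranges. It was called 1.36-fold higher (edgeR adjusted p = 0.0114), but not with numbers up to 18 only (0.343). Sftpa1, surfactant protein A, was 1.99-fold higher without overlap, Nkx2-1, the factor of lung epithelial identity, 2.28-fold lower and Chil1 2.16-fold lower. Of type 1 genes Igfbp2 was measured at 4.26, 8.38 and 24.8 CPM against 94.1, 121, 111, 129 and 149 CPM (11.4-fold lower), Akap5 was 1.63-fold lower and Spock2 and the lung claudin Cldn18 were 1.72-fold and 1.26-fold higher.

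In the airway epithelium, Scgb1a1, the secretoglobin of club cells, was not called (6792 ± 838 against 7322 ± 706 CPM, SD, n = 7 and 5; edgeR adjusted p = 0.35), and the secretory list was 4 higher and 8 lower of 28 tested, or 9 higher and 6 lower with numbers up to 18 only. Members that differed included enzymes and mucus genes. Chia1, the acidic chitinase, was measured at 0.702, 1.74 and 4.04 CPM in CAST/EiJ and 74.1, 61.4, 73.1, 73.7 and 69.7 CPM in C57BL/6J (35.3-fold lower, edgeR adjusted p = 7.44e-08), while Hp, haptoglobin, was 2.86-fold higher, and Agr2, which folds mucins, 4.45-fold higher. The 4 gel-forming mucin genes that lie side by side on chromosome 7 were all lower, Muc6 2.39-fold, Muc2 3.49-fold, Muc5ac 3.08-fold and Muc5b 6.13-fold, though Muc2 was not called without the libraries with squamous keratins (edgeR adjusted p = 0.127). The mucus-associated peptide Tff2 was 7.09-fold lower. Ciliated cell genes were 4 higher and 19 lower of 34 tested (median -0.45), with the motor Dnah5 2.18-fold and Hydin 2.43-fold lower, Rsph1 2.64-fold higher, and Foxj1, the master factor of motile cilia, not called (edgeR adjusted p = 0.513). With numbers up to 18 only, 5 ciliated genes were higher and 9 lower (median -0.138), and the log2 differences of Dnah5 and Hydin were -0.37 and -0.52 in place of -1.12 and -1.28, both called.

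Neuroendocrine genes were 4 higher and 3 lower of 14 tested: Calca, the precursor of the peptide CGRP, stood at 2.51, 4.74 and 6.12 CPM in CAST/EiJ and 0.599, 0.827, 0.575, 0.522 and 0.61 CPM in C57BL/6J (7.45-fold higher), Scg2 was 7.33-fold higher and Ret, a receptor kinase, 3.58-fold lower. Endothelial genes were 11 higher and 14 lower of 38 tested. Lyve1, of lymphatic endothelium and some macrophages, was 2.81-fold higher and the adhesion molecule Vcam1 1.9-fold higher, whereas Nos3, which makes nitric oxide, and Sox17 were 1.92-fold and 2.09-fold lower. Smooth muscle and pericyte genes were 11 higher and 5 lower of 24 tested, led by the contractile genes Actg2 (3.53-fold) and Cnn1 (3.15-fold), with Notch3 2.24-fold lower. Fibroblast and matrix genes were 18 higher and 12 lower of 50 tested. The proteoglycan Lum was measured at 53.2, 73.2 and 88.1 CPM against 12, 9.28, 9.55, 13.7 and 20.04 CPM (5.49-fold higher), Mmp2 was 2.12-fold higher, and the collagen cross-linking enzyme Lox was 2.44-fold lower.

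Enzymes that handle xenobiotics bear on the study's gas, since BD is oxidised to epoxides that epoxide hydrolase and glutathione S-transferases clear. In clean air the enzymes at the centre of that route were not called: Ephx1 stood at 229.7 ± 36.1 against 203 ± 3.76 CPM (edgeR adjusted p = 0.161), Gstt1 at 53.6 ± 7.63 against 48 ± 6.73 CPM (0.239) and Gstm1 at 225 ± 21.7 against 220.3 ± 12.4 CPM (0.766), each as mean ± SD of 7 CAST/EiJ and 5 C57BL/6J libraries. Cyp2e1, which oxidises BD, was measured at 19.1, 58.1 and 209 CPM in CAST/EiJ and 63.6, 22.9, 56.5, 35.9 and 38.2 CPM in C57BL/6J and was not called (0.158), but it was with numbers up to 18 only (log2 1.95, edgeR adjusted p = 0.0285). RNA_1 and RNA_2, the CAST/EiJ libraries with those numbers, were its highest of the strain. They also held the most albumin, 92.9 and 944 CPM, against at most 4.525 CPM in the other CAST/EiJ libraries and 14.6–276 CPM in C57BL/6J. The part of liver RNA in this call was not tested. Ephx1 was called without RNA_1 (log2 0.249, edgeR adjusted p = 0.00620) and, like Gstt1, without the libraries with squamous keratins (0.0388 and 0.0241). In the latter subset strain and number series largely go together.

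The wider list of such enzymes was 17 higher and 3 lower of 37 tested (median 0.42), with Gstm7 3.43-fold, Gstp2 2.53-fold and Gstk1 2.12-fold higher. Glutathione and NRF2 targets were 29 higher and 9 lower of 53 tested (median 0.32): Ggt1, which breaks down glutathione, was 4.81-fold and the peroxidase Gpx2 2.85-fold higher, and Sod3, the extracellular superoxide dismutase, 3.81-fold lower (20.3 ± 4.52 against 77.3 ± 15.4 CPM). Cytochrome P450 genes were 13 higher and 5 lower of 53 tested (20 and 6 with numbers up to 18 only). Their list score was 4.07 in RNA_2 and 3.21 in RNA_1, and at most 2.69 in the other CAST/EiJ libraries. Cyp1a1, the target of the aryl hydrocarbon receptor, was measured at 0.642, 1.01 and 1.77 CPM in CAST/EiJ and 9.58, 10.9, 10.8, 8.7 and 9.77 CPM in C57BL/6J (8.0-fold lower, edgeR adjusted p = 6.33e-08). Cyp2b13 was 6.95-fold higher and Cyp2j6 4.4-fold lower.

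Other xenobiotic enzymes were 31 higher and 17 lower of 77 tested. The carboxylesterases Ces2b, Ces2e and Ces2c, neighbours on chromosome 8, were 9.18-fold, 7.03-fold and 2.33-fold higher and Ces1g 3.37-fold higher. Sult1d1, a sulfotransferase, was measured at 0.251, 1.45 and 4.37 CPM against 36.9, 29.95, 18.4, 38.9 and 49.5 CPM (20.1-fold lower; log2 -4.33, and -3.09 with numbers up to 18 only, RNA_1 and RNA_2 being its highest CAST/EiJ libraries), and the paraoxonases Pon1 and Pon2, neighbours on chromosome 6, were 5.28-fold and 5.0-fold lower. Complement and coagulation genes were 23 higher and 9 lower of 44 tested, with factor VII (F7) 4.71-fold and factor X (F10) 3.71-fold higher and C2 5.42-fold lower.

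Nuclear genes of oxidative phosphorylation differed by little but together: 71 of 83 were higher and 2 lower, with a median of 0.49. Cox7c was 3.15-fold higher (46.7 ± 7.79 against 14.8 ± 2.35 CPM) and the ATP synthase genes Atp5g1 and Atp5g2 2.45-fold and 2.21-fold higher. At equal strain the number series had a median of 0.24 on these genes (31 of 83 called, all higher in numbers over 100), and with numbers up to 18 only 58 were higher and 2 lower between strains (median 0.48). Ribosomal protein genes were 48 higher and 6 lower of 80 tested (median 0.43). For these the series effect was of like size, with a median of 0.45 and 67 of 80 called, and with numbers up to 18 only the strain median was 0.26 (38 higher, 9 lower). CAST/EiJ held 5 of the 6 libraries numbered over 100.

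Some ribosomal genes stood far from the rest, with Rps12 4.39-fold, Rpl37a 3.5-fold and Rps29 3.19-fold higher and Rpl21 5.7-fold, Rpl35a 4.7-fold and Rps2 3.98-fold lower. Each has many processed copies in the genome, so reads can be split and the counts are uncertain. Gapdh, a glycolytic enzyme with many such copies, showed the same, at 2.1, 3.23 and 4.17 CPM in CAST/EiJ and 26.6, 17.7, 28, 23.7 and 26 CPM in C57BL/6J. Chromatin modifiers were 5 higher and 46 lower of 77 tested (median -0.29), led by the large transcripts Kmt2d (3.01-fold), Setd1b (3.09-fold) and Arid1a (2.76-fold) on the lower side and by Hdac6 (1.81-fold) on the higher. Heat shock chaperones were 11 higher and 1 lower of 25 tested, with RNA_106 the highest C57BL/6J library (list score 6.63, the others 5.50–5.66) and 18 members higher without it.

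Genes of the DNA damage response showed no common direction. P53 targets were 11 higher and 9 lower of 37 tested. Cdkn1a, the cell cycle inhibitor p21, was measured at 18.7, 24.3 and 36 CPM in CAST/EiJ and 7.56, 13, 7.65, 10.8 and 15.5 CPM in C57BL/6J (2.31-fold higher, edgeR adjusted p = 0.000178), the stress cytokine Gdf15 was 4.78-fold higher and Zmat3 1.85-fold lower. DNA repair genes were 22 higher and 31 lower of 96 tested (median -0.0479): Mgmt, which repairs alkylated guanine, was 2.5-fold higher, and the glycosylase Neil2 6.21-fold and Fancc 2.35-fold lower. Of 56 cell cycle genes 9 were higher and 10 lower, and Mki67 was 1.55-fold lower with overlapping ranges, but not called with numbers up to 18 only (edgeR adjusted p = 0.911). Lipid and cholesterol genes were 11 higher and 5 lower of 40 tested, with the elongase Elovl5 1.74-fold higher and the desaturase Scd2 2.02-fold lower. Erythroid genes were 9 higher and 4 lower of 18 tested (median 0.473). With numbers up to 18 only, 6 erythroid genes were higher and 3 lower (median 0.177). At equal strain the number series had a median of 0.373 on them, with 6 higher and 0 lower at the higher title numbers. Epithelial junction genes were 9 higher and 5 lower of 28 tested (14 higher without RNA_106) and genes of type 2 immunity 8 higher and 5 lower of 26 tested. Adipocyte and cardiac muscle genes each had 3 higher and 0 lower members, of 18 and 20, and 11 and 7 higher members with numbers up to 18 only.

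A list of genes with textbook variant alleles in C57BL/6J or its relatives was 5 higher and 3 lower of 9 tested. Its members were picked for such knowledge, and their directions are no independent evidence. Nnt, the mitochondrial transhydrogenase in which C57BL/6J carries a deletion of several exons, was measured at 72.8, 77.8 and 83.5 CPM in CAST/EiJ and 34.3, 29, 33.1, 34.2 and 31.2 CPM in C57BL/6J (2.4-fold higher, edgeR adjusted p = 1.82e-09). The antiviral genes Mx2 and Mx1, defective in most laboratory strains, were 5.04-fold and 1.43-fold higher, the latter not called without the libraries with squamous keratins (edgeR adjusted p = 0.106). Apobec3, a restriction factor of retroviruses that C57BL/6 is known to express at a high level, was 3.93-fold lower (14.6 ± 1.98 against 57.7 ± 16.2 CPM), as were Klra8, the Ly49H receptor for mouse cytomegalovirus (5.23-fold), and Cox7a2l, a factor of respiratory supercomplexes (1.61-fold). Imprinted genes were 13 higher and 10 lower of 36 tested, among them Asb4 5.94-fold, Rian 2.87-fold and Mirg 3.13-fold higher and Rasgrf1 3.95-fold lower.

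Called 2-fold differences of 1 direction also lay side by side along the chromosomes, in 24 runs of 4 or more neighbouring tested genes. The longest held 11 alpha protocadherins on chromosome 18, all higher (median log2 2.15), cell surface genes that share their last exons, so that their counts are not independent. Pcdhac2 was measured at 98.3, 119 and 139.7 CPM against 29.7, 36.5, 27.3, 24.4 and 26.5 CPM. The run of 8 lower genes from Plac9a on chromosome 14 and that of 6 with Gvin1 on chromosome 7 each held 2 entries identical to another. The 24 runs are thus not all independent differences. On chromosome 6, runs of 8 Klra genes and of 7 genes from Klre1 to Klri2 were lower (medians -2.60 and -3.20), while the neighbouring Clec2f, Klrb1f and Clec2e were in a run of 5 higher genes (median 5.86). On chromosome 15, 7 Apol genes were lower (median -3.35). On chromosome 12, 7 neighbours of the imprinted Dlk1-Dio3 domain, from Rtl1 through Rian and Mirg to Dio3os, were higher (median 1.52), with Rtl1 2.45-fold and Dio3os 3.1-fold. Trem1, Trem3 and Treml4 on chromosome 17 lay in a run of 5 higher genes (median 1.74) and Ms4a1, Ms4a7, Ms4a4c and Ms4a4b on chromosome 19 in a run of 4 lower genes (median -2.45).

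To separate the strain from the number series, the comparison was repeated with the 2 CAST/EiJ and 4 C57BL/6J libraries numbered up to 18. It called 7440 of 16974 genes (43.8%), and 2463 at 2-fold (14.5%). Of the 9540 genes called with all 12 libraries, 9506 were tested again, 9460 had the same direction, 6438 were called in it (67.7%) and 0 were called in the other. Of the 2394 called at 2-fold, 2367 were tested again, all had the same direction and 2139 were called (90.4%). Both sets share 6 libraries, so the overlap is no independent repeat. With the series as a covariate, 7883 of the 9540 and 2340 of the 2394 stayed called. Of the 231 genes that the naming rule took up, Ltf, Cma1, Tgtp2, Irgm1, Nlrc5, Myc, Nr4a1, Zdbf2 and Sftpc were called with all libraries and not with numbers up to 18 only, and Cyp2e1 was the reverse.

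Some list counts and folds beyond those given above also moved by over 1.5 times with numbers up to 18 only. The counts of genes higher and lower were 7 and 18 for endothelial genes, 7 and 1 for neuroendocrine genes, 1 and 6 for immediate early genes and 4 and 7 for clock genes. They were 11 and 5 for the cell cycle, 18 and 19 for DNA repair, 8 and 9 for lipid and cholesterol synthesis, 11 and 6 for imprinted genes and 13 and 2 for neutrophil genes. These counts are to be read against 3670 higher and 3770 lower of all 16974 genes tested with these numbers (43.8% called). Of the 38 endothelial genes, more were thus lower than higher in these 6 libraries. For the 56 cell cycle genes, the shares called higher and lower were both under those of all genes. Log2 differences farther from 0 were found for Agr2 (3.22, 2.15 with all libraries), Scg2 (3.50, 2.87 with all libraries), Actg2 (2.74, 1.82 with all libraries), Cxcl5 (4.16, 3.34 with all libraries), Gsdma3 (7.79, 7.10 with all libraries), Nr1d1 (-2.87, -1.88 with all libraries) and Krt79 (-6.01, -5.18 with all libraries). Nearer to 0 were Tbx21 (-1.90, -2.71 with all libraries), Klrc2 (-3.76, -4.82 with all libraries), Trim30d (-4.92, -6.07 with all libraries), Klrb1-ps1 (6.32, 7.07 with all libraries) and Olfr1033 (-5.49, -6.66 with all libraries). Each of these 12 genes kept its direction and its call.

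The strain difference was also measured in other libraries, 5 CAST/EiJ and 6 C57BL/6J under BD, none of which enters the clean-air comparison. Under BD, 7417 of 17377 genes were called (42.7%). Of the 2394 genes called at 2-fold in clean air, 2341 had the same direction under BD, 1921 were called in it and 1 in the other (plot of the log2 differences in both exposures). NK cell genes had a median of -2.36 in clean air and -2.28 under BD (2 higher and 24 lower of 30). The medians of T cells (-1.72 and -0.82), B cells (-1.66 and -0.46), glucocorticoid-responsive genes (0.93 and 0.31) and oxidative phosphorylation (0.49 and 0.11) were nearer to 0 under BD, and the medians themselves were not tested against each other.

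The difference between the exposures was tested gene by gene as an interaction, which called 1641 of 17377 genes (9.44%). The interaction fit held no term for the number series, so a called gene can differ by exposure or by series. It called 9 of 32 T cell genes, 8 of 33 B cell genes, 10 of 22 glucocorticoid-responsive genes, 11 of 83 of oxidative phosphorylation and 1 of 30 NK cell genes. Also called were 9 of 18 erythroid genes, 25 of 77 chromatin modifiers, 9 of 28 secretory airway genes and 20 of 77 other xenobiotic enzymes. Of the BD-metabolising enzymes 8 of 37 were called, and of MHC class I genes 0 of 32. Medians in clean air and under BD were 0.47 and -0.38 for erythroid genes (0 higher and 6 lower under BD). They were -0.08 and -0.78 for secretory genes and 0.42 and -0.0021 for BD-metabolising enzymes. Fkbp5 and Fam107a, 6.04-fold and 7.66-fold higher in clean air, had log2 differences of 0.37 and 0.48 under BD and were not called there (edgeR adjusted p = 0.337 and 0.0874). The interaction was called for both (0.0117 and 0.00149). Hc (-3.71 and -3.29), Itih4 (3.03 and 3.08), Lum (2.46 and 2.10) and Nnt (1.26 and 1.10) were called in both exposures, with no called interaction.

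**Figure D5:**
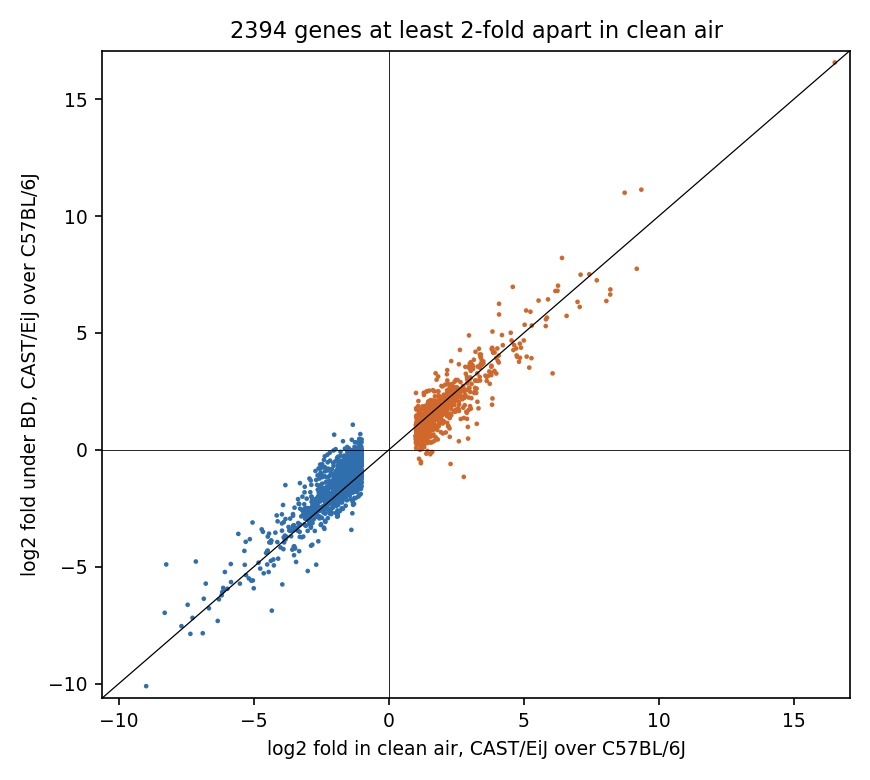
Log2 fold change of CAST/EiJ over C57BL/6J under BD (y axis, 5 and 6 libraries) against that in clean air (x axis, 7 and 5 libraries) for the 2394 genes called at 2-fold in clean air, 1 point per gene, orange where higher and blue where lower in clean air. The points follow the line of equal values, and 53 lie on the other side of 0 under BD.

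The library left out of these BD values, RNA_8, was labelled CAST/EiJ under BD. For 1267 genes called at 2-fold in clean air that were also at least 2-fold apart without overlap under BD, its level was placed between the C57BL/6J BD mean (0) and the CAST/EiJ BD mean (1) on the log2 scale. The median position was 0.00398, 1055 genes (83.3%) lay under 0.2 and 55 (4.34%) over 0.5. It lay over 0.5 for 0 of 23 NK cell genes, 0 of 10 T cell genes, 0 of 12 GTPases and 4 of 12 ribosomal genes. Genes at which it stood at the CAST/EiJ level or beyond it included Ddx3x (0.994, with 9374 counts), Amer1 (1.02), Gapdh (1.19), Rps2 (1.38), Rpl21 (1.20), Rpl35a (1.03), Tpt1 (0.992) and H2-Q2 (1.69). RNA_8 held 46.7 CPM of H2-Q2 and 8.51 CPM of Rps2, beyond the CAST/EiJ BD libraries (21.1 ± 2.19 and 15.7 ± 0.896 CPM, SD). Its 21 Y-linked entries had no value, as in all libraries labelled CAST/EiJ. For the genes named, the level lay on the side of the label, in a library whose other genes mostly stood at the C57BL/6J level. The part of this in their strain differences was not tested. With RNA_8 kept under its label, 6025 genes were called under BD.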

How the data were processed

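The authors deposited 1 table of counts per gene for the 24 RNA-seq libraries. Reads were aligned with GSNAP and the build mm9 was used, per the submitters' processing notes, and their versions, the annotation and the counting step are not stated in the sources used here. The table held 23893 entries, and 21 without a value in CAST/EiJ (Y-linked) were left out. Another 1188 entries, in 285 sets, equalled another entry in all libraries and were not named.

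Genes were kept by filterByExpr, scaled by TMM and tested with edgeR 4.0.16 (quasi-likelihood, robust; R 4.3.3), with Benjamini-Hochberg adjustment over all tested genes and a threshold of 0.05. DESeq2 1.42.0 and limma 3.58.1 (voom) were alternatives. The procedure was tested on simulated counts. CPM used TMM-scaled library sizes. No 2 libraries agreed within sampling noise. Chromosomes and promoter windows came from RefSeq (GRCm38.p6), and 16520 of 16612 symbols matched.

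Named genes were called, did not overlap between strains, reached a mean of 1 CPM in a strain, and were neither predicted nor identical entries: the 10 highest and 10 lowest folds, the 6 and 6 at 100 CPM or more, up to 3 and 3 per list, and 8 genes in every case. The members, the 50 lists and the rules were chosen with earlier results of these data known. Further genes were added after their values were seen.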

Additional observations from a re-analysis of the deposited data

Results flagged for a closer look

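Among 182 sets of values of 1 strain in clean air (library totals, list scores and levels of 40 genes), 19 held a library far from the others of its strain by Dixon's criterion, and chance gives about 5% of sets. Values apart in list scores (mean log2 CPM) were those of C57BL/6J RNA_106 for basal and squamous epithelium (4.92, the others 1.78–2.23), ribosomal proteins (7.03, the others 6.52–6.64) and heat shock chaperones (6.63, the others 5.50–5.66). C57BL/6J RNA_5 stood apart for the genes with known variant alleles (2.90, the others 2.70–2.73). CAST/EiJ RNA_1 stood apart for the interferon-inducible GTPases (4.35, the others 2.93–3.17) and for epithelial junctions (5.58, the others 5.71–5.78), and CAST/EiJ RNA_2 for neuroendocrine genes (1.79, the others 1.16–1.38).

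Among single genes in CAST/EiJ, RNA_105 stood apart for Rprl2 (33 CPM, the others 5.29–13.3) and Kng2 (294 CPM, the others 165–217) and RNA_2 for Hc (95.1 CPM, the others 58.9–73.0). At levels of a few counts, RNA_102 stood apart for Clec12b (0.0581 CPM, the others 0), RNA_1 for Skint3 (0.175 CPM, the others 0–0.0447) and RNA_104 for Cd209f (0.0893 CPM, the others 0). In C57BL/6J, RNA_106 was low for Clec12b (3.21 CPM, the others 6.56–7.63) and Tmem132d (13 CPM, the others 17.1–18.6), and RNA_3 was low for Cd74 (815 CPM, the others 906–938) and H2-Ea-ps (0 CPM, the others 0.173–0.217). C57BL/6J RNA_5 was high for Ear11 (0.115 CPM, the others 0–0.0265) and Lcn8 (0.0575 CPM, the others 0).

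The strain difference under BD differed from that in clean air for 6 of the 40 genes, by the interaction of strain and exposure in edgeR with p adjusted over all genes and without RNA_8. The fit held no term for the number series, so this fit does not tell exposure from series in these 6 genes. The interaction without the libraries of the higher title numbers was not tested. As BD minus clean air on the log2 scale, it changed by 3.39 for Clec12b (adjusted p = 0.0144; -8.24 in clean air, -4.90 under BD) and by 0.567 for Cd74 (0.0486; -1.70 and -1.13). The difference of Lyz1 changed by -0.851 (0.0243; 3.06 and 2.21) and that of Retsat by -0.372 (0.0371; 2.97 and 2.60). For the enzymes of BD metabolism Ephx1 (-0.451, adjusted p = 0.0495; 0.176 and -0.271) and Gstt1 (-0.447, adjusted p = 0.048; 0.156 and -0.287) the sign of the difference was not the same in the 2 exposures.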

How the results depend on the processing

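The count of 9540 genes stayed within 1.5 times under the alternatives run, between 7440 with numbers up to 18 only and 10491 with all 4 RNA-seq groups without RNA_8, except 2695 (1027 higher, 1668 lower) when edgeR's glmTreat tested against a fold of 1.5. DESeq2 called 9850 and limma-voom 9550. Leaving out single libraries gave 8662–9874 genes, and 2269–2685 in place of 2394 at 2-fold, a count that ranged from 2129 with the number series as a covariate to 3227 without a filter on low counts. The count for the number series ranged from 1747 (without CAST/EiJ RNA_1; 2298 without RNA_2) to 3927, and it rests in CAST/EiJ on these 2 libraries against 5. The count under BD, 7417, became 6808–7326 without single libraries, 6025 with RNA_8 kept and at most 7740, without a filter on low counts.

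Of 5082 log2 differences of 231 named genes under alternatives, 5034 kept their side of the threshold, 43 lost the call and 5 gained it, and no called difference changed sign; the cause was not tested. The differences of Ephx1 (log2 0.176), Gstt1 (0.156), Gstm1 (0.0283) and Scgb1a1 (-0.108), none of them called, changed sign under some alternatives, to -0.0674, -0.0327, -0.0212 and 0.0510 at the farthest. Besides the calls given above, Cma1 was not called without the libraries with squamous keratins (edgeR adjusted p = 0.0769; 0.0051 to 0.12 over all alternatives). The libraries with squamous keratins and the single BD libraries were left out as alternatives chosen after seeing the data. No paired analysis was possible because the title numbers are unique to each library. Depth limits the genes near 0 in a strain, whose folds rest on a few counts; those of Lcn8, Clec12b, Wfdc17, Cd209f and Gabra3 moved by over 1.5 times both under limma-voom and with numbers up to 18 only.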
